A study of Homo sapiens with 9 samples.

Results

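Messenger RNAs of the WNT signalling system were followed in ES-2 cells, a line from an ovarian carcinoma, through 10 genes chosen by name: the ligands WNT5A, WNT5B and WNT7B, the secreted antagonists DKK1 and SFRP1, the receptors FZD2, FZD7 and LRP6, the feedback inhibitor AXIN2 and the transcription factor LEF1. Each of the 10 symbols matched a single row among the 58174 genes of both deposited tables. Cells had been transfected with a control siRNA (siC) or with siRNA pools against IGF2BP1 (siIGF2BP1) or SRF (siSRF), and RNA depleted of ribosomal RNA was sequenced 72 h later. There were 3 libraries per group, hence 9 in all, from cells of 1 line grown alike and with no other treatment. The labels do not say whether the libraries of a group came from separate cultures, so that p-values measure the spread between these libraries, which may be technical.

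WNT ligands are secreted, lipid-modified proteins that bind Frizzled (FZD) receptors on neighbouring cells. Together with the co-receptors LRP5 and LRP6, some ligands prevent the destruction of β-catenin, which then enters the nucleus and activates genes through LEF1 and the related TCF factors. AXIN2 is a classical target of this branch and a brake on it. WNT5A and WNT5B are best known for the branches that do not need β-catenin, in which the receptor ROR1 and planar polarity proteins take part. DKK1 blocks LRP5 and LRP6 from outside the cell, whereas SFRP1 resembles the ligand-binding part of a Frizzled and can bind WNT proteins. IGF2BP1 binds and protects many mRNAs, and SRF is a transcription factor that recognises the CArG box.

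Between 6421764 and 9416175 reads per library lay on genes (median, 7377934). Values are given as FPKM, fragments per kilobase of gene scaled to an effective size of the library. That size differed from the reads on genes (6602588 against 6421764 in siC replicate 1, 7134901 against 7377934 in siSRF replicate 1). The IGF2BP1 mRNA stood at 12.1 to 13.5 FPKM in siC and at 4.02 to 4.18 FPKM in siIGF2BP1, and the SRF mRNA at 13.6 to 16.0 FPKM in siC and at 1.36 to 1.63 FPKM in siSRF. SRF was also low in siIGF2BP1, at 5.42 to 6.80 FPKM, whereas IGF2BP1 stood at 13.7 to 14.6 FPKM in siSRF. As for the labelled cell type, the epithelial markers EPCAM, CDH1 and KRT19 had no read in siC and at most 5 reads in any other library. KRT8 and KRT18 (8.81 and 43.4 FPKM on average in siC) and the mesenchymal markers VIM and CDH2 (1055 and 25.4 FPKM) were present. The blood cell marker PTPRC had no read in any library. KRT18 stood at 77.9 to 84.7 FPKM in siSRF against 41.8 to 45.7 FPKM in siC, and VIM at 836.6 to 885.6 FPKM in siSRF against 1046 to 1065 FPKM in siC. In siIGF2BP1, KRT8 stood at 11.98 to 13.78 FPKM against 8.54 to 9.20 FPKM in siC, and CDH2 at 38.95 to 41.16 FPKM against 22.7 to 27.0 FPKM. These 4 shifts were called by the test used below (adjusted p = 0.000329, 0.0091, 0.00455 and 0.00282, limma). The other keratin and the other mesenchymal marker were not called in either knockdown. In siIGF2BP1, VIM was lower, at 839 to 919 FPKM (log2 difference to siC -0.26, adjusted p = 0.04, limma). KRT18 differed there by -0.07 (adjusted p = 0.777). In siSRF, KRT8 differed by 0.19 (adjusted p = 0.19) and CDH2 by 0.23 (adjusted p = 0.0731). The markers thus did not move together, and their part in the results was not tested.

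Promoter sequence was at hand for 4 of the 10 genes, WNT5A, WNT5B, DKK1 and LEF1, as 6 RefSeq windows that reach from 250 bases before a transcription start to 50 bases after it (GRCh38.p14). They were searched on both strands for the CArG box and for the TCF/LEF motif, spelled as CTTTGAA with its variant CTTTGAT or else as CTTTGTA with its variant CTTTGTT. A CArG box occurred in 1.29% and a TCF/LEF motif in 13.8% of 35116 RefSeq windows of the same length. The windows of DKK1 and LEF1 held matches and are shown for that reason, the DKK1 window up to its start site (chr10:52314031-52314280, plus strand) with the TCF/LEF motifs in capitals, and 30 bases of the LEF1 window (chr4:108166376-108166405, minus strand) with the CArG box in capitals.
DKK1: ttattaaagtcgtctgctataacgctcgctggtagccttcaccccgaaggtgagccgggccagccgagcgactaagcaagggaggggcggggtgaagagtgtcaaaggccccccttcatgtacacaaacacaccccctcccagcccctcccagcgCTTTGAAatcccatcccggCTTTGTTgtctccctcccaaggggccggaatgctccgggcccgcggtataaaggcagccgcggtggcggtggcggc
LEF1: acctttttttCCTTAAATGGcatctttcta

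The DKK1 matches began 95 and 76 bases before the start, and the letters TATAAA, the core of a TATA box, began 30 bases before it (TATAAA occurred in 11.5% of all windows). The CArG box of LEF1 began 94 bases before a RefSeq start that lies 2631 bases downstream of the first base of the canonical GENCODE transcript, inside the first intron of that transcript. The windows of WNT5A and WNT5B held neither a CArG box nor a TCF/LEF motif. TATAAA also occurred in 1 window of WNT5B, on the opposite strand, 78 bases before the start. These matches describe the letters of the windows, and no binding was measured.

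Per length of gene, the secreted antagonists stood far above the ligands in siC cells. SFRP1 was highest with 203 ± 14.0 FPKM (SD, n = 3, as for all means), followed by DKK1 with 165 ± 7.11, FZD2 with 15.0 ± 2.51, LRP6 with 8.79 ± 0.392, FZD7 with 6.17 ± 0.756 and WNT5B with 4.26 ± 0.162 FPKM. LEF1 (0.672 ± 0.127 FPKM) and WNT5A (0.565 ± 0.179 FPKM) came next, with overlapping libraries, and AXIN2 (0.0822 ± 0.0434 FPKM) and WNT7B (0.0477 ± 0.0154 FPKM) were last, again with overlapping libraries. All other neighbours in this order were separated in their 3 siC libraries. The plot of levels by library shows the order and its changes.

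**Figure D1:**
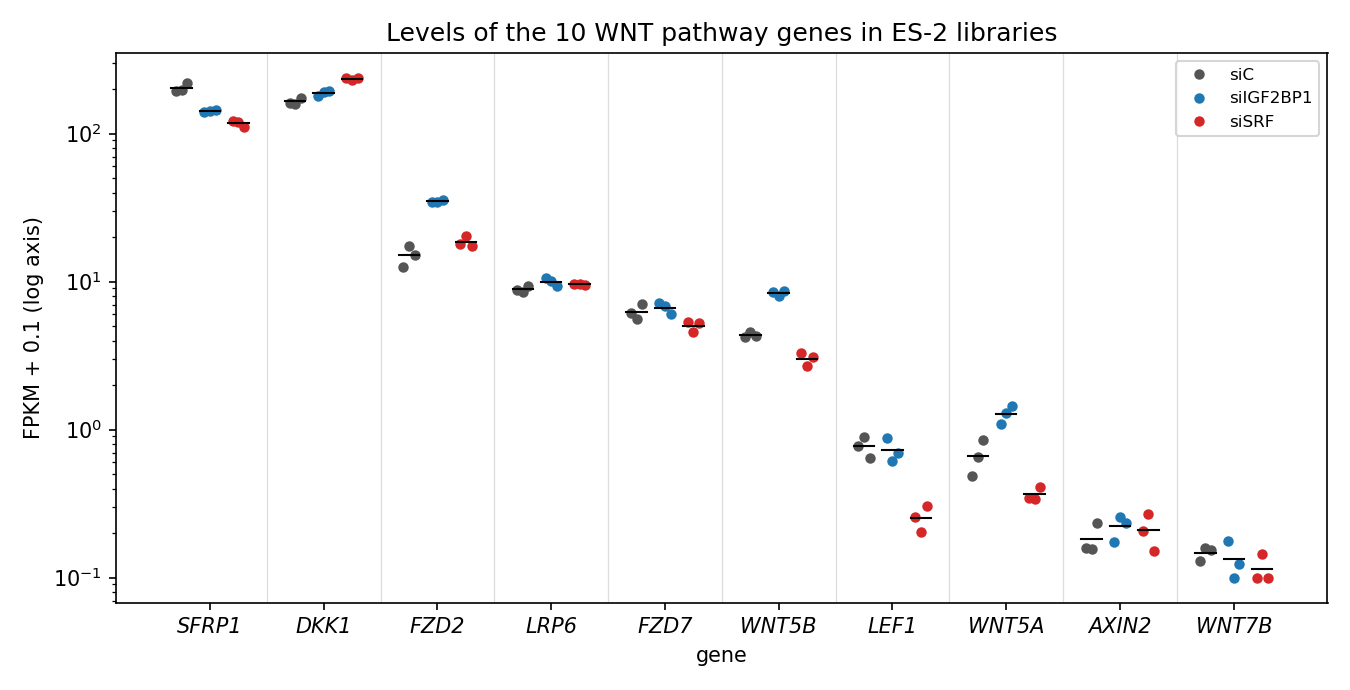
FPKM + 0.1 on a log axis of the 10 genes, ordered by their mean in siC, with a point for each of 3 libraries per group and a black line at FPKM mean + 0.1. SFRP1 and DKK1 lie above 100 FPKM in every library, WNT5B and FZD2 are highest in siIGF2BP1, and LEF1 and WNT5A are lowest in siSRF.

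WNT5B and FZD2 rose upon IGF2BP1 depletion and SFRP1 fell, whereas upon SRF depletion SFRP1 fell and DKK1 rose. Compared directly, the 2 knockdowns differed for WNT5A, WNT5B and FZD2, all higher in siIGF2BP1, and for DKK1 and SFRP1 by smaller steps. Both comparisons with siC use the same 3 siC libraries. Each was made with limma on log2(FPKM + 0.1) over every gene whose mean in the libraries compared reached 0.1 FPKM, and a gene was called at a Benjamini-Hochberg adjusted p of at most 0.01. Fold changes on this scale understate the change of genes at low levels. In bulk RNA, fewer cells with an mRNA and less of it per cell cannot be told apart.

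Among the ligands, WNT5B, a WNT of the β-catenin-independent kind, carried most of the signal. Its level was 4.15, 4.44 and 4.18 FPKM in siC, 8.362, 7.929 and 8.501 FPKM in siIGF2BP1 and 3.19, 2.57 and 2.99 FPKM in siSRF. The lowest siIGF2BP1 library thus lay above every siC library, and the highest siSRF library below every siC library. WNT5B rose by a log2 fold change of 0.94 ± 0.0699 (SE, adjusted p = 0.000713, limma) in siIGF2BP1 against siC, which was 1.94-fold in the means. For siSRF against siC the log2 difference was -0.53 ± 0.109 and missed the threshold (adjusted p = 0.0159), while limma-voom, which weights the reads recovered from the FPKM values by their number, gave an adjusted p of 0.00137. With trends along GC content and gene length taken out, this difference was -0.33 (adjusted p = 0.0847).

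WNT5A, the close relative of WNT5B, stood far lower, and its differences had the same signs. It measured 0.389, 0.557 and 0.748 FPKM in siC, 0.987, 1.19 and 1.34 FPKM in siIGF2BP1 and 0.246, 0.237 and 0.312 FPKM in siSRF, from between 13 and 84 reads per library. The groups did not overlap in any of the 3 comparisons. The log2 difference to siC was 0.96 ± 0.287 in siIGF2BP1 (adjusted p = 0.0738, limma) and -0.83 ± 0.339 in siSRF (adjusted p = 0.139), so that neither passed, although limma-voom on the reads gave 0.000557 and 0.00802. WNT7B had between 0 and 3 reads per library, at or under the floor of 3 reads, and no fold change was computed for it.

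The sum over all 19 WNT ligands followed WNT5B. It was 5.64 ± 0.183 FPKM in siC, 9.94 ± 0.422 in siIGF2BP1 and 4.19 ± 0.315 in siSRF. WNT5B made up 75.5% ± 2.61 of the sum in siC, 83.2% ± 0.827 in siIGF2BP1 and 69.5% ± 2.81 in siSRF. Of the 16 ligands that are not among the 10 genes, 9 had no read in any library and none reached a mean of 1 FPKM in siC.

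Among the Frizzled receptors of the 10 genes, FZD2 was called and FZD7 was not. FZD2, a Frizzled encoded by a single exon, measured 12.4, 17.4 and 15.1 FPKM in siC, 34.3, 34.6 and 35.5 FPKM in siIGF2BP1 and 17.9, 20.3 and 17.4 FPKM in siSRF. All siIGF2BP1 libraries lay above all others, whereas siSRF and siC touched at 17.4 FPKM. FZD2 rose by a log2 fold change of 1.22 ± 0.119 in siIGF2BP1 against siC (adjusted p = 0.0017, limma), or 2.32-fold in the means, and its log2 difference of 0.32 ± 0.131 in siSRF against siC was not called (adjusted p = 0.146).

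**Figure D2:**
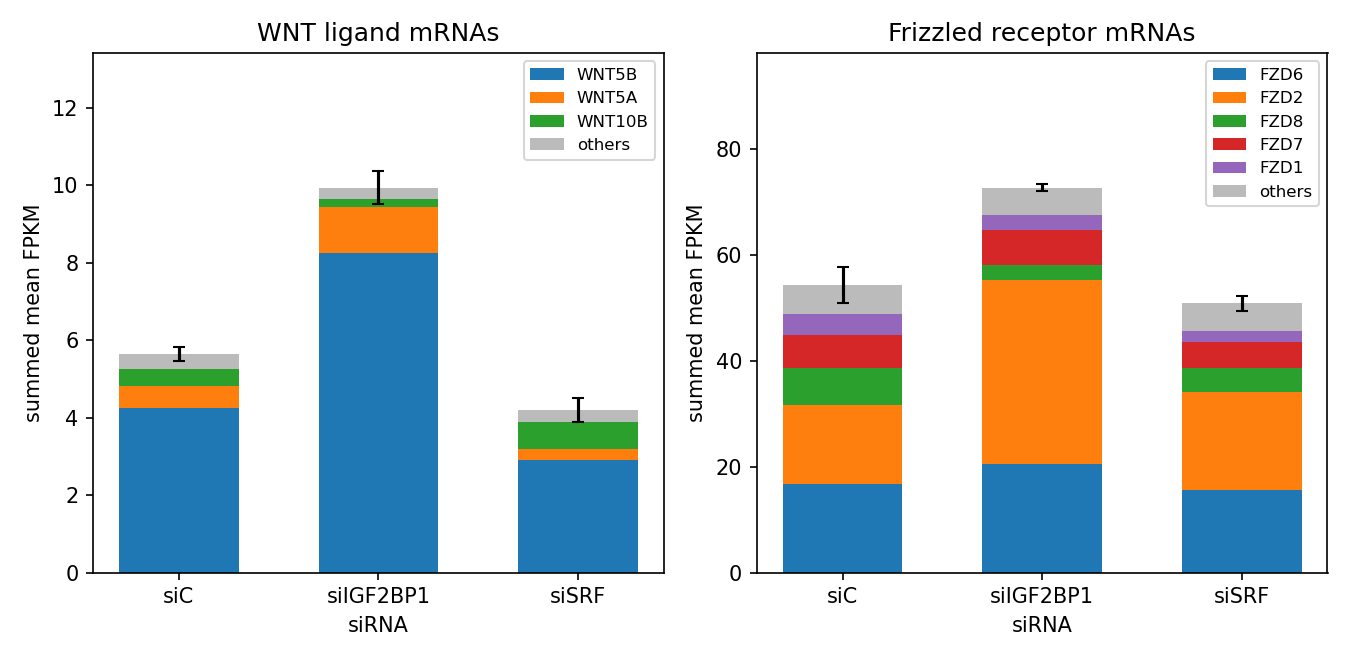
Mean FPKM per group, stacked over the 19 WNT ligands (left) and the 10 Frizzled receptors (right), with the leading genes in colour, all remaining genes of the family in grey and error bars of 1 SD of the sum over 3 libraries. The sum of the ligands is highest in siIGF2BP1 through WNT5B, and FZD2 takes 47.9% of the Frizzled sum there against 27.6% in siC.

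Over the 10 Frizzled genes the summed level was 54.3 ± 3.35 FPKM in siC, 72.6 ± 0.636 in siIGF2BP1 and 50.8 ± 1.36 in siSRF. FZD2 took 27.6% ± 4.50, 47.9% ± 0.434 and 36.5% ± 2.05 of it. Within a library, where no scaling of the library matters, the ratio of FZD2 to FZD6, the leading Frizzled in siC on average, was 0.738, 1.24 and 0.793 in siC, 1.69, 1.74 and 1.69 in siIGF2BP1 and 1.155, 1.278 and 1.139 in siSRF. FZD2 thus exceeded FZD6 in all 6 knockdown libraries and in 1 of 3 siC libraries.

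FZD7, a further single-exon Frizzled, measured 6.04, 5.49 and 6.99 FPKM in siC, 7.03, 6.71 and 5.93 FPKM in siIGF2BP1 and 5.27, 4.43 and 5.13 FPKM in siSRF, so that siIGF2BP1 overlapped siC and siSRF lay below both. Its log2 difference to siC was 0.09 (95% interval, -0.19 to 0.37, adjusted p = 0.652, limma) in siIGF2BP1 and -0.31 (-0.60 to -0.03, adjusted p = 0.114) in siSRF. LRP6, the co-receptor that DKK1 binds, measured 8.72, 8.44 and 9.22 FPKM in siC, 10.5, 10.0 and 9.23 FPKM in siIGF2BP1 and 9.60, 9.50 and 9.38 FPKM in siSRF. Both knockdowns lay just above siC, with log2 differences of 0.17 (95% interval, -0.0036 to 0.34, adjusted p = 0.179) and 0.11 (-0.03 to 0.25, adjusted p = 0.227). Neither was called, and with GC content and length taken out the second was -0.01.

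The antagonists were called in opposite directions. SFRP1 measured 193, 198 and 219 FPKM in siC, 139, 143 and 145 FPKM in siIGF2BP1 and 123, 119 and 111 FPKM in siSRF. The 3 groups did not overlap, with siC on top and siSRF at the bottom. SFRP1 fell to 69.9% of siC in siIGF2BP1 (log2 fold change -0.52 ± 0.0584, adjusted p = 0.00291, limma) and to 57.8% in siSRF (-0.79 ± 0.0646, adjusted p = 0.000743). It was the only gene of the 10 called in both comparisons with siC. SFRP1 also made up on average 99.98% of the summed FPKM of the SFRP genes and FRZB in siC, 99.96% in siIGF2BP1 and 99.97% in siSRF.

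DKK1 measured 162, 160 and 173 FPKM in siC, 181, 190 and 194 FPKM in siIGF2BP1 and 237, 230 and 238 FPKM in siSRF. Again no groups overlapped, here with siSRF on top. DKK1 rose by a log2 fold change of 0.51 ± 0.0449 in siSRF against siC (adjusted p = 0.000922, limma), or to 142% of siC. In siIGF2BP1 the log2 difference was 0.19 ± 0.0515 and was not called (adjusted p = 0.0518), while limma-voom gave an adjusted p of 0.00773. DKK1 shares 227 bases of exon with PRKG1-AS1, a gene on the opposite strand at 1.32 FPKM in siC, and the strand setting of the counting is not given in the sources used here.

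The order of the antagonists differed between siC and the knockdowns. The ratio of DKK1 to SFRP1 within a library was 0.839, 0.807 and 0.788 in siC, 1.30, 1.34 and 1.35 in siIGF2BP1 and 1.93, 1.93 and 2.14 in siSRF. SFRP1 was thus the more abundant in each siC library and DKK1 in each knockdown library. An exact two-sided permutation test of a single gene over 3 against 3 libraries cannot give a p below 0.1, and it gave 0.1 for SFRP1 and DKK1 in all 3 comparisons.

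LEF1, the nuclear factor with a CArG box in the window shown above, was low in all groups. It measured 0.678, 0.796 and 0.542 FPKM in siC, 0.778, 0.511 and 0.595 FPKM in siIGF2BP1 and 0.157, 0.102 and 0.202 FPKM in siSRF, which were 24, 29 and 21, 32, 20 and 27, and 6, 5 and 8 reads. The siSRF libraries lay below all others, and siIGF2BP1 overlapped siC. For siSRF against siC the log2 difference was -1.61 ± 0.340 (adjusted p = 0.0179, limma), outside the threshold of 0.01 and inside 0.05, and the mean was 22.9% of siC. On the reads, limma-voom gave -2.11 with an adjusted p of 6.2e-05. In siIGF2BP1 the log2 difference to siC was -0.09 (95% interval, -0.76 to 0.59, adjusted p = 0.879), and its sign turned without siC replicate 2 (0.03) or without siIGF2BP1 replicate 2 (0.03).

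LEF1 contributed 23.5% ± 2.05 of the summed FPKM of the 4 TCF and LEF factors in siC, 20.2% ± 1.02 in siIGF2BP1 and 6.86% ± 1.68 in siSRF. LEF1-AS1, a gene on the opposite strand that shares up to 279 bases of exon with LEF1, stood at 0.180 FPKM in siC, 0.135 in siIGF2BP1 and 0.0706 in siSRF. AXIN2, the feedback target, was at the edge of detection, with 2, 2 and 5 reads in siC, 3, 6 and 6 in siIGF2BP1 and 4, 8 and 2 in siSRF. No difference of AXIN2 was detectable at this depth (log2 difference of 0.30 in siIGF2BP1 against siC, 95% interval, -0.84 to 1.43, adjusted p = 0.726, limma). A further gene, ENSG00000266076, shares exon bases with AXIN2 on the same strand.

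**Figure D3:**
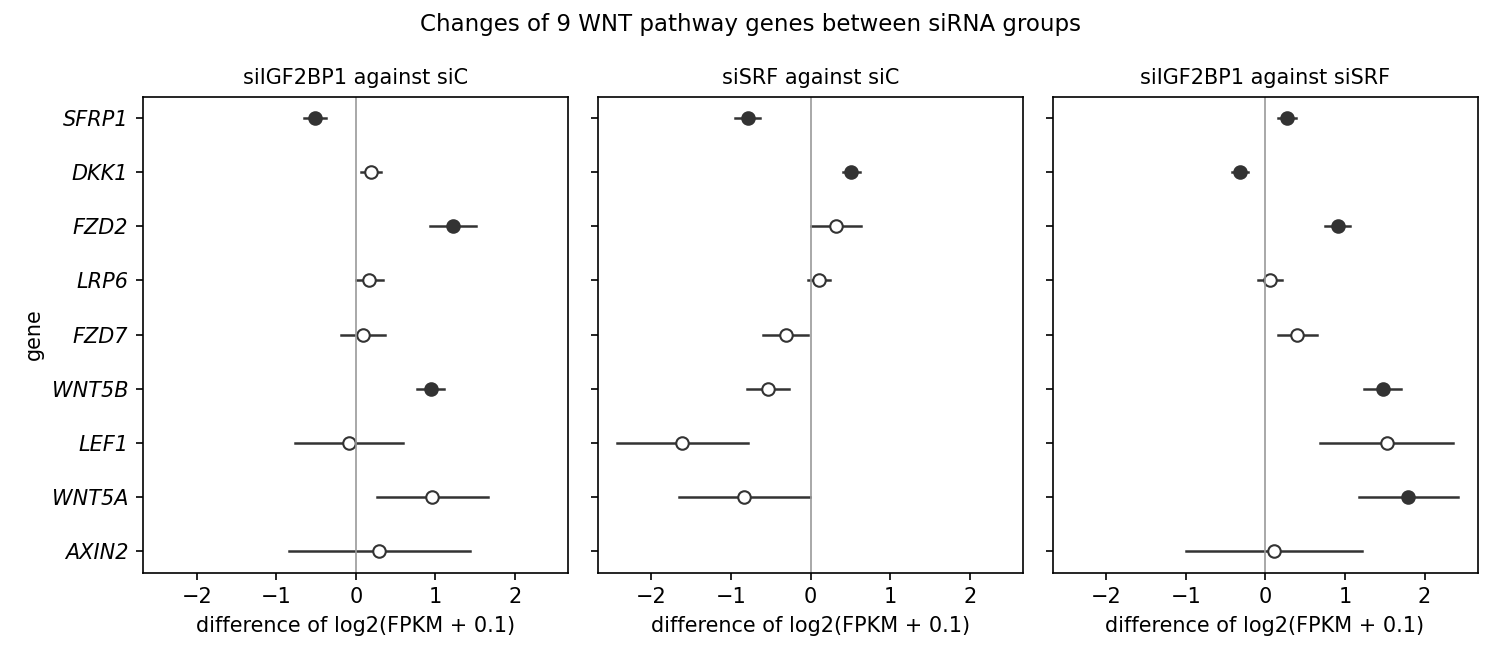
Differences of log2(FPKM + 0.1) of the genes tested, with 95% intervals from limma, for siIGF2BP1 against siC, siSRF against siC and siIGF2BP1 against siSRF, filled where the adjusted p was at most 0.01. WNT7B was below the filter in all 3 comparisons and AXIN2 in siSRF against siC. WNT5B and FZD2 lie to the right of 0 in the first and last panels, and SFRP1 to the left in the first 2.

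Counted over the 10 genes, 9 passed the filter on low values in siIGF2BP1 against siC, of which 2 were called higher and 1 lower. Of all 22292 genes tested, 3.55% were called higher and 3.57% lower. The libraries of the groups did not overlap for 6 of the 9, against 35.6% of all genes, and limma-voom called 5, against 17.1%. In siSRF against siC, 8 passed the filter, 1 was called higher and 1 lower, against 6.85% and 5.34% of 21857 genes. Here 7 did not overlap, against 39.9%, and limma-voom called 5, against 23.4%. The 10 genes and the wider list used below were chosen with earlier results of these data known. Their counts and medians, here and below, therefore describe these genes and test no excess over all genes.

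Left out libraries bear on these calls, since 2 then stand against 3. WNT5B in siIGF2BP1 against siC stayed called in all 6 such fits (adjusted p up to 0.00947, limma). FZD2 lost its call without siC replicate 3 or without any siIGF2BP1 library (adjusted p up to 0.0219), with log2 fold changes of 1.10 to 1.34 over the 6 fits. SFRP1 lost its call without siC replicate 1 or 2 or any siIGF2BP1 library (adjusted p up to 0.0235, log2 fold changes of -0.55 to -0.46). In siSRF against siC, DKK1 lost its call without siSRF replicate 1 (adjusted p = 0.0101) and SFRP1 without siSRF replicate 2 (adjusted p = 0.0103).

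The direct comparison of siIGF2BP1 with siSRF, which uses no siC library, tests whether the effects of the knockdowns differ. The log2 difference was 1.80 ± 0.258 for WNT5A (adjusted p = 0.00278, limma), 1.47 ± 0.0966 for WNT5B (adjusted p = 0.000132) and 0.91 ± 0.0639 for FZD2 (adjusted p = 0.00017), each higher in siIGF2BP1. SFRP1 was higher in siIGF2BP1 by 0.27 ± 0.0456 (adjusted p = 0.00509), and DKK1 was lower by a log2 difference of -0.32 ± 0.0402 (adjusted p = 0.00167). LEF1 (1.52 ± 0.344, adjusted p = 0.0169) and FZD7 (0.40 ± 0.101, adjusted p = 0.025) were not called, although limma-voom gave 7.15e-05 and 0.00357. The LRP6 difference of 0.06 had an interval of -0.09 to 0.21, and AXIN2 could not be resolved (interval, -0.998 to 1.22).

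In this comparison 4 of the 9 genes tested were called higher and 1 lower in siIGF2BP1, against 8.82% and 11.2% of 22311 genes. The groups did not overlap for 7 of the 9, against 46.1% of all genes, and limma-voom called 7, against 31.0%. WNT5B and FZD2 stayed called with each library left out (adjusted p up to 0.00262 and 0.00309, limma). WNT5A lost its call without siIGF2BP1 replicate 2 or 3 or siSRF replicate 1 or 2 (adjusted p up to 0.0144), DKK1 without any siSRF library (up to 0.0121) and SFRP1 without any of the 6 (up to 0.0279).

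SFRP1, called against siC in both knockdowns, was compared with all 10379 other protein-coding genes of at least 1 FPKM for the likeness of its pattern. The highest Pearson correlations of log2(FPKM + 0.1) over the 9 libraries were those of FAM84B (0.988), ARL2 (0.987) and CDK16 (0.984). The 9 points fall into 3 groups, so that these values describe the group pattern and carry no test.

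A wider list of 96 other genes of the pathway gave the surroundings. In siIGF2BP1 against siC, 56 of them passed the filter, with 5 called higher and 3 lower and a median log2 difference of 0.02, next to 0.19 for the 9 tested genes above and 0.02 for all genes. In siSRF against siC, 55 passed, with 5 called higher and 7 lower and a median of -0.03, next to -0.42 and 0.01. In siIGF2BP1 against siSRF, 54 passed, with 12 called higher and 9 lower and a median of 0.20, next to 0.40 and 0.02.

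By role, the receptors and co-receptors of the wider list gave 1 call higher and 1 lower of 11 tested in siIGF2BP1 against siC, and 3 lower of 11 in siSRF against siC. Among 15 intracellular components the calls were 2 lower in the former and 4 higher and 4 lower in the latter. Planar polarity genes gave 2 higher of 7 tested in siIGF2BP1 against siC and none of 5 in siSRF against siC, where 1 had an unadjusted p under 0.05 and limma-voom called 1. None of the 9 nuclear factors was called by limma in any of the 3 comparisons, while 3, 2 and 3 had an unadjusted p under 0.05 and limma-voom called 1, 1 and 2. Of all genes tested, limma called 3.55% higher and 3.57% lower in siIGF2BP1 against siC. The shares were 6.85% and 5.34% in siSRF against siC, and 8.82% and 11.2% in siIGF2BP1 against siSRF. For limma-voom they were 17.1%, 23.4% and 31.0% in both directions together.

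ROR1, a receptor for WNT5A, gave the largest change of the wider list. It measured 0.744, 0.614 and 0.535 FPKM in siC, 4.49, 5.29 and 4.13 FPKM in siIGF2BP1 and 0.438, 0.457 and 0.202 FPKM in siSRF. ROR1 rose by a log2 fold change of 2.70 ± 0.178 in siIGF2BP1 against siC (adjusted p = 0.000514, limma) and stayed called with each library left out. Its log2 difference of -0.69 ± 0.355 in siSRF against siC was not called (adjusted p = 0.226).

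In planar polarity, PRICKLE2 measured 0.709, 0.569 and 0.459 FPKM in siC, 1.999, 1.906 and 1.961 FPKM in siIGF2BP1 and 0.732, 0.811 and 0.644 FPKM in siSRF. DAAM1, a formin that links Dishevelled to the actin cytoskeleton, measured 1.40, 1.33 and 1.38 FPKM in siC, 3.73, 4.17 and 3.76 FPKM in siIGF2BP1 and 1.36, 1.41 and 1.34 FPKM in siSRF. Both rose in siIGF2BP1, by log2 fold changes of 1.61 ± 0.21 (adjusted p = 0.00462, limma) and 1.44 ± 0.114 (adjusted p = 0.000918), while the log2 differences in siSRF against siC were 0.30 and 0.00. PRICKLE2 lost its call when any of the 6 libraries was left out (adjusted p up to 0.0323), and DAAM1 without siIGF2BP1 replicate 3 (adjusted p = 0.0112). The direction of DAAM1 in siSRF turned with the rescaling of libraries (-0.03).

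DKK3, a secreted member of the Dickkopf family, measured 75.4, 77.1 and 83.0 FPKM in siC, 211, 208 and 218 FPKM in siIGF2BP1 and 87.4, 86.1 and 78.7 FPKM in siSRF. It rose by a log2 fold change of 1.44 ± 0.0502 in siIGF2BP1 (adjusted p = 0.000101, limma) and showed a log2 difference of 0.10 ± 0.0589 in siSRF (adjusted p = 0.299). The ratio of DKK3 to DKK1 was 0.466 to 0.483 in siC, 1.09 to 1.17 in siIGF2BP1 and 0.331 to 0.374 in siSRF. DKK1 thus went from 67.2% ± 0.329 of the summed FPKM of DKK1 to DKK4 in siC to 46.8% ± 0.825 in siIGF2BP1 and 73.4% ± 1.23 in siSRF.

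**Figure D4:**
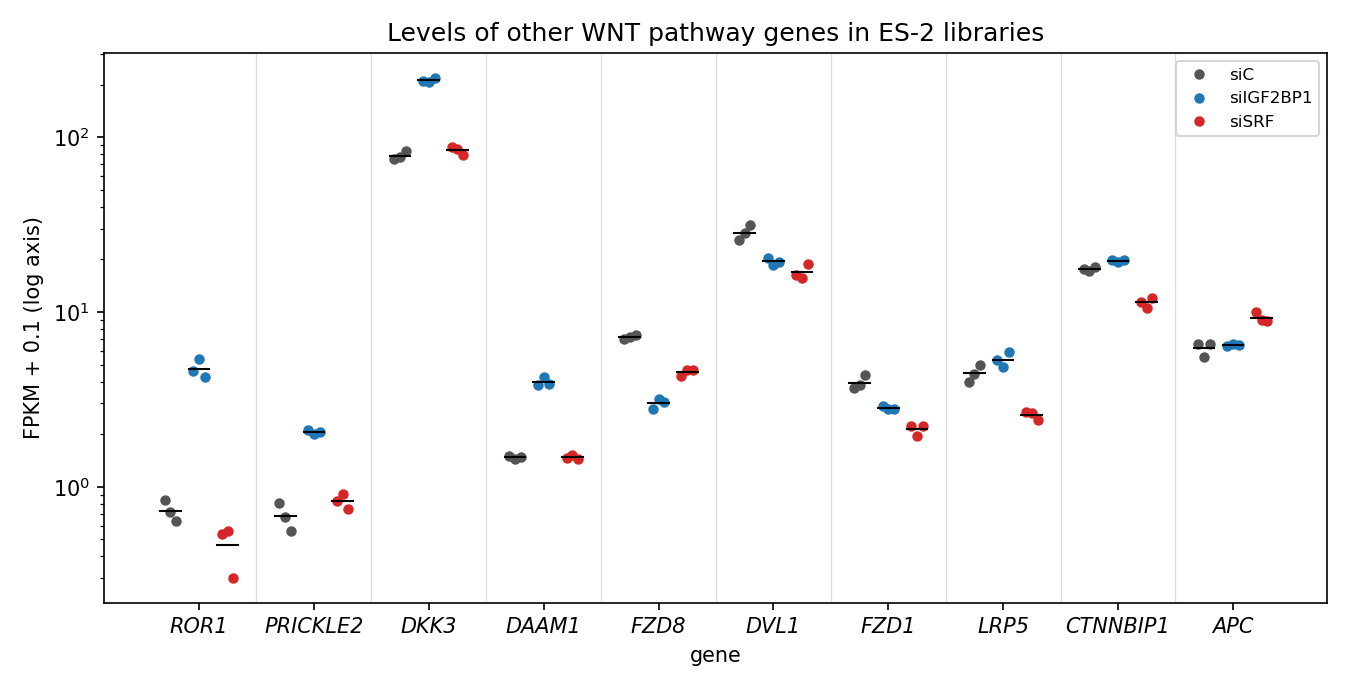
FPKM + 0.1 on a log axis of the 10 genes named from the wider list, with a point for each of 3 libraries per group and a black line at FPKM mean + 0.1. ROR1, PRICKLE2, DKK3 and DAAM1 stand above siC and siSRF in every siIGF2BP1 library, and FZD8, DVL1 and FZD1 stand below siC in both knockdowns.

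FZD8 and DVL1 fell in both knockdowns. FZD8, a Frizzled, measured 6.88, 7.08 and 7.27 FPKM in siC, 2.69, 3.10 and 2.96 FPKM in siIGF2BP1 and 4.21, 4.57 and 4.54 FPKM in siSRF, with log2 fold changes of -1.25 ± 0.0862 (adjusted p = 0.00059, limma) and -0.66 ± 0.07 (adjusted p = 0.00161). DVL1, a Dishevelled that passes the signal on from Frizzled, went from 28.3 ± 2.81 FPKM to 19.4 ± 0.815 in siIGF2BP1 and 16.7 ± 1.67 in siSRF, with log2 fold changes of -0.54 ± 0.0802 (adjusted p = 0.00716) and -0.75 ± 0.0988 (adjusted p = 0.00329). The first of these was -0.32 (adjusted p = 0.0319) with GC content and length taken out, and both calls were lost with any library left out (adjusted p up to 0.0452 and 0.0253). FZD8 in siSRF against siC was -0.41 with GC content and length taken out (adjusted p = 0.00675), and it lost its call without siSRF replicate 2 (adjusted p = 0.0103).

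The remaining named genes were called in siSRF against siC. FZD1, a Frizzled, fell from 3.85 ± 0.358 to 2.04 ± 0.156 FPKM (log2 fold change -0.88 ± 0.119, adjusted p = 0.00363, limma). LRP5, the partner of LRP6, fell from 4.36 ± 0.494 to 2.47 ± 0.139 FPKM (-0.79 ± 0.116, adjusted p = 0.00488). CTNNBIP1, an inhibitor that keeps β-catenin from TCF factors, fell from 17.5 ± 0.524 to 11.2 ± 0.735 FPKM (-0.64 ± 0.0627, adjusted p = 0.0013).

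APC, a scaffold of the complex that destroys β-catenin, rose from 6.12 ± 0.578 to 9.19 ± 0.626 FPKM in siSRF (0.58 ± 0.0936, adjusted p = 0.00682, limma). In siIGF2BP1 the means of FZD1, LRP5, CTNNBIP1 and APC were 2.72, 5.23, 19.6 and 6.37 FPKM, and none of these 4 was called against siC by limma (FZD1, adjusted p = 0.0278, and 0.00148 by limma-voom). FZD1, LRP5 and APC lost their calls in siSRF with any library left out (adjusted p up to 0.0196, 0.0266 and 0.0344), CTNNBIP1 without siC replicate 1 or siSRF replicate 1 (up to 0.0117). LRP5 was also not called with GC content and length taken out (-0.54, adjusted p = 0.0208).

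In the genome (GRCh38, GENCODE 44), WNT5A lies at chr3:55465715-55490539, WNT5B at chr12:1529891-1647212, WNT7B at chr22:45920366-45977162, DKK1 at chr10:52314281-52318042 and LEF1 at chr4:108047545-108168956. FZD2 lies at chr17:44557484-44561262, FZD7 at chr2:202033855-202038441, LRP6 at chr12:12116025-12267044 and AXIN2 at chr17:65528563-65561648. FZD2 and FZD7 consist of 1 exon, DKK1 of 4, WNT5A and WNT5B of 5, AXIN2 of 11, LEF1 of 12 and LRP6 of 23 in the canonical transcript, and FPKM values cover the exons of each gene together.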

How the data were processed

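Total RNA-seq of 9 ES-2 libraries, 3 per group, was analysed. Per the labels and the study's methods, the authors clipped reads with cutadapt 1.14, aligned them to GRCh38 with HISAT2 2.1.0, counted them with featureCounts 1.5.3 on Ensembl genes and compared groups with edgeR 3.18.1. The FPKM of each library, beside the length of each gene, were deposited by the authors in 2 tables, in which the siC values are identical. The tables also hold the authors' log2 fold changes, p-values and FDR per gene, which were not used. FPKM times length came out as whole reads for 100% of values (tolerance, 0.01 reads), which gave the depth of 6421764 to 9416175 reads on genes, of which the abundant RNA RN7SL2 took 4.52 to 5.38%. Intervals are from limma and, like its p-values, measure the spread between these libraries, which may be technical. Floors of 3 reads cover counting error only.

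Groups and replicate numbers were taken from the labels. The 10 genes and the list of 96 further pathway genes were chosen with earlier results of these data known. Under R 4.3.3, limma 3.58.1 (lmFit, then eBayes with its trend option) compared pairs of groups on the scale log2(FPKM + 0.1). A gene entered where its mean over the 6 libraries reached 0.1 FPKM, with p-values adjusted by Benjamini-Hochberg over all genes tested and called at 0.01. From the wider list, up to 6 genes per comparison with siC were named, those of the largest change among the genes called whose mean reached 1 FPKM. IGF2BP1 and SRF were named as the check of the knockdowns, and for SFRP1 the 3 protein-coding genes of the most similar pattern. limma-voom was run on the recovered reads. The alternatives were pseudocounts of 1 and 0.01, no filter or 1 FPKM, median-ratio rescaling, all 9 libraries, robust eBayes, a threshold of 0.05, GC content and length taken out as cubic trends, a replicate block and leaving out each library, and those of the named genes of the wider list were chosen after seeing the data. The fits were tested on simulated data. Libraries of a group differed by more than sampling noise. Sequences are from RefSeq (GRCh38.p14), positions from GENCODE 44.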

Additional observations from a re-analysis of the deposited data

Results flagged for a closer look

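siIGF2BP1 and siSRF differed in the direct comparison by limma (threshold on the adjusted p, 0.01) for 5 of the 9 genes tested. Of the wider list 12 of 54 genes were called higher and 9 lower, and of all genes 8.82% and 11.2%. The genes named from the wider list were picked by their change against siC in the same libraries, so that the values of the 8 that differed are a description. The log2 difference, siIGF2BP1 minus siSRF, was 1.796 for WNT5A, 1.475 for WNT5B, 0.908 for FZD2, 0.274 for SFRP1 and -0.3165 for DKK1. It was 3.391 for ROR1, 1.435 for DAAM1, 1.338 for DKK3, 1.315 for PRICKLE2, 1.049 for LRP5, 0.7968 for CTNNBIP1, -0.5201 for APC and -0.5932 for FZD8. For SFRP1 and FZD8 both knockdowns lay below siC and differed in size, whereas WNT5A, WNT5B, ROR1 and CTNNBIP1 lay above siC in all siIGF2BP1 libraries and below it in all siSRF libraries, though not every one of these differences to siC was called.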

How the results depend on the processing

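The log2 differences of the 10 genes, without the untested WNT7B, were followed over 6 left out libraries per comparison and all alternatives but the threshold of 0.05. They kept direction and side of the threshold in 360 cases, lost a call in 32, gained one in 11 and turned in 5. The turned values were LEF1 in siIGF2BP1 against siC (left out libraries, -0.2309 to 0.03054), AXIN2 in siIGF2BP1 against siSRF (-0.1013 to 0.308) and LRP6 in siSRF against siC with GC content and length taken out (-0.0111), none of them called. For the genes named from the wider list these counts were 408, 62, 2 and 6, and the turned values were APC in siIGF2BP1 against siC with GC content and length taken out (-0.0671; left out libraries, -0.0198 to 0.1013) and DAAM1 in siSRF against siC with rescaling (-0.0331), with GC content and length taken out (-0.146) and with left out libraries (-0.0192 to 0.01552). For siIGF2BP1 against siC, siSRF against siC and siIGF2BP1 against siSRF, 3, 2 and 5 of the 10 genes and 8, 12 and 21 of the wider list were called. limma-voom called 5 of the 10 genes in the first and 5 in the second comparison, and 15 and 20 of the wider list. In siSRF against siC an adjusted p of 0.05 gave 4 and 19, and all 9 libraries in 1 fit gave 4 of the 10 genes. With the replicate block the counts were 0, 0 and 2 of the 10 genes and 1, 2 and 10 of the wider list (limma; unadjusted p under 0.05 for 5, 6 and 7 of the 10 genes). Same-numbered deviations from the group means correlated by -0.0438 to 0.0186. No label says whether equal numbers mark a shared culture or day, and these correlations cannot settle it. With a library left out, 1 to 2, 1 to 2 and 2 to 4 of the 10 genes and 3 to 5, 3 to 5 and 15 to 18 of the wider list were called, with 1 library fewer in each fit. The cause of the other changes was not tested. Depth limits AXIN2 and WNT7B, at no more than 8 and 3 reads per library, and with 3 libraries per group limma on FPKM called fewer genes than limma-voom.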

Other observations

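CSNK1A1, the kinase that primes β-catenin for its destruction, moved in opposite directions in the knockdowns and is named here after its values were seen. It measured 30.1, 32.4 and 32.0 FPKM in siC, 21.7, 21.5 and 21.9 FPKM in siIGF2BP1 and 48.3, 45.7 and 47.2 FPKM in siSRF, and no groups overlapped. CSNK1A1 fell by 0.54 on the log2 scale in siIGF2BP1 against siC (adjusted p = 0.00108, limma) and rose by 0.58 in siSRF against siC (adjusted p = 0.00067). The direct comparison gave a log2 difference of -1.11 ± 0.0359 (adjusted p = 1.45e-05). The call in siIGF2BP1 against siC was lost without siIGF2BP1 replicate 3 (adjusted p = 0.011), and the other 2 calls held with each library left out.

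LGR5, a receptor of R-spondins and also named after its values were seen, measured 0.433, 0.504 and 0.553 FPKM in siC, 0.199, 0.104 and 0.270 FPKM in siIGF2BP1 and 1.25, 1.07 and 1.11 FPKM in siSRF. These values came from 15, 18 and 21 reads in siC, 8, 4 and 12 in siIGF2BP1 and 47, 51 and 43 in siSRF. The lowest siIGF2BP1 library was thus close to the floor of 3 reads. The 3 groups did not overlap. The direct comparison gave a log2 difference of -2.13 ± 0.322 (adjusted p = 0.0034, limma), while neither comparison with siC was called (adjusted p = 0.112 and 0.0165). The call was lost without siIGF2BP1 replicate 1 or any siSRF library (adjusted p up to 0.019).

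WLS, which carries WNT proteins to the cell surface and was likewise named after its values were seen, measured 20.3, 20.2 and 20.2 FPKM in siC, 24.8, 23.7 and 24.2 FPKM in siIGF2BP1 and 18.8, 17.8 and 17.1 FPKM in siSRF. WLS rose by 0.26 on the log2 scale in siIGF2BP1 against siC (adjusted p = 0.00935, limma). This call was lost with robust eBayes (adjusted p = 0.0123) and with any of the 6 libraries left out (up to 0.0318). In siSRF against siC the log2 difference of -0.18 was not called (adjusted p = 0.0427). The direct comparison gave a log2 difference of 0.44 (adjusted p = 0.000944, limma), called also with each library left out (up to 0.00808). These alternatives for CSNK1A1, LGR5 and WLS were chosen after seeing the data.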
